A study of Mus musculus with 8 samples.

Results

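The orphan and NR4A nuclear receptors are transcription factors of the nuclear receptor family, most of which bind DNA. No hormone has been settled as their physiological ligand in these cells. The 10 genes described here are Nr5a1, Nr5a2 and Nr0b1, the NR4A genes Nr4a1, Nr4a2 and Nr4a3, the COUP-TF genes Nr2f1 and Nr2f2, and the testicular receptor genes Nr2c1 and Nr2c2. They were chosen by name as members of these families and found through their mouse Entrez gene IDs among the 24235 genes of the array. All 10 had at least 1 probe. The cells were primary follicular cells, mostly granulosa cells, grown from preantral follicles of female Swiss mice aged 8 weeks, with pools of 5 mice per replicate. They were transfected for 24 h with 12 pmol of siRNA, either a pool without a target (control siRNA) or a pool targeting Foxl2 (FOXL2 siRNA), treated for 10 h with 100 nM 17β-estradiol (E2) or vehicle, and lysed after 9 days in culture. Each of the 4 combinations of siRNA and treatment was measured on 2 arrays. All groups shared a medium with charcoal-treated serum and without phenol red or added androstenedione, and a co-transfected pDsRed plasmid. Follicles can also bring theca cells into such cultures, and no purity was given. The comparisons asked whether FOXL2 siRNA or E2 changed the mRNA of these receptors, and whether the E2 effect differed between the siRNAs.

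NR5A1 (steroidogenic factor 1) and NR5A2 (liver receptor homolog 1) bind a common extended AGGTCA motif as monomers and drive genes of steroid synthesis in the gonads, NR5A2 mainly in granulosa and luteal cells. NR0B1 (DAX1) lacks the usual DNA-binding domain and represses NR5A1 on its targets. NR4A1, NR4A2 and NR4A3 are immediate early factors: their genes respond quickly to gonadotropins and other signals that raise cyclic AMP, and the proteins bind steroidogenic promoters. COUP-TFs mostly repress transcription, and NR2F2 is a factor of stromal and theca cells in the ovary. NR2C1 (TR2) and NR2C2 (TR4) bind direct repeats of AGGTCA and can oppose other receptors, estrogen receptors among them.

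The target of the siRNA was examined first. Foxl2, the granulosa cell factor, had log2 scaled signals of 13.46 and 13.01 on the control siRNA arrays with vehicle, 12.94 and 12.76 on those with E2, 13.41 and 13.39 on the FOXL2 siRNA arrays with vehicle, and 13.12 and 12.96 on those with E2. Across vehicle and E2 together Foxl2 changed by 0.18 (SE 0.10) with a limma adjusted p of 0.334. The gene value thus did not show the fall that the label implies. Its 2 probes disagreed. The bright probe changed by 0.17 with vehicle and 0.19 with E2, and the dim probe by -1.15 and -0.79. The dim probe was detected on all 8 arrays. The paper reports that each siRNA pool lowered its target mRNA by qPCR, and shows a Western blot of FOXL2 after this siRNA. Both are described with its earlier array experiment, not for the cultures measured here. Which probe reflects the knockdown was not tested. Below, arrays are therefore called by their label. Of the granulosa markers, 7 of 10 were well above background on all 8 arrays, whereas Fshr and Amh, the receptor for FSH and the anti-Müllerian hormone, were above it on none. Of the 7 oocyte markers, 6 were above background on no array. The 5 Sertoli cell markers were all detected. Sox9, Sox8 and Dhh were called higher in the arrays labelled FOXL2 siRNA. Over both treatments they rose by 2.05, 1.72 and 1.04 on the log2 scale, while Cldn11 (0.59) and Dmrt1 (-0.48) were not called. Of all tested genes, 6.41% were called higher and 6.19% lower in that comparison. The summed Sertoli marker signal was 2380 to 3309 on the control siRNA arrays and 4529 to 6438 on the others. This sum came mostly from Dhh, at 11.05 to 12.50 on the log2 scale, where Sox9, Sox8, Dmrt1 and Cldn11 reached at most 8.46. Of the other markers, those of macrophages (2 of 6 detected on all arrays), endothelium (2 of 5) and theca and stroma (5 of 10) had no gene called by limma in any comparison. The 6 tested theca and stroma markers still had a median change of 0.47 over both treatments, from -0.04 (Acta2) to 1.10 (Col1a1). Unadjusted limma p-values were under 0.05 for 3 of them, and for 26.8% of all tested genes. Over both treatments 3 of the 8 tested granulosa markers, Fst, Hsd17b1 and Esr2, were called lower and 0 higher, against 6.19% and 6.41% of all tested genes. The log2 changes of these 3 were -2.02, -1.47 and -0.46 (limma adjusted p = 0.000226, 0.00222 and 0.0167). The 5 that were not called had changes from -0.75 (Cyp19a1) to 0.41 (Amhr2), and the summed granulosa signal was 94100 to 107933 on the control siRNA arrays and 100991 to 128603 on the others. This granulosa sum came mostly from Amhr2 (15.19 to 16.11 on the log2 scale) and Inha (15.06 to 15.37). The other granulosa markers reached at most 13.46. Of the 6 luteal markers 4 were tested, and Cyp11a1 alone was called, while Star, Prlr and Akr1c18 had changes of 0.47, -0.23 and -0.97. The summed luteal signal was 19706 to 23130 on the control siRNA arrays and 35896 to 39970 on the others. It came mostly from Cyp11a1, at 14.02 to 15.12 on the log2 scale, where the other luteal markers reached at most 11.69. The part of these cell types in the receptor values was not tested. In such bulk RNA, fewer cells of a type and less RNA per cell cannot be told apart.

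Of the 10 receptors, 8 were well above background on 8 of 8 arrays and passed the filter of a median scaled signal of at least 10. These were Nr5a1, Nr5a2, Nr4a1, Nr4a2, Nr2f1, Nr2f2, Nr2c1 and Nr2c2. The remaining 2, Nr0b1 and Nr4a3, were above background on none. The scaled signal of Nr0b1, the repressor of NR5A1, was 5.70 and 5.45 on the control siRNA arrays with vehicle, 4.46 and 4.50 on those with E2, 4.79 and 9.65 on the FOXL2 siRNA arrays with vehicle, and 3.42 and 4.10 on those with E2. The value of 9.65 stands above the other 7, and 1 of the 80 Nr0b1 spots over all arrays was well above background. Nr4a3, the third NR4A gene, lay between 2.52 and 3.42 on every array, with 0 of 80 spots above background. For scale, the lowest signal of any probe well above background was 11.2 to 14.8, depending on the array. No fold change is given for Nr0b1 or Nr4a3, since both sides of each comparison were at background. Levels of different genes are not set against each other, because each probe has its own response.

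**Figure D1:**
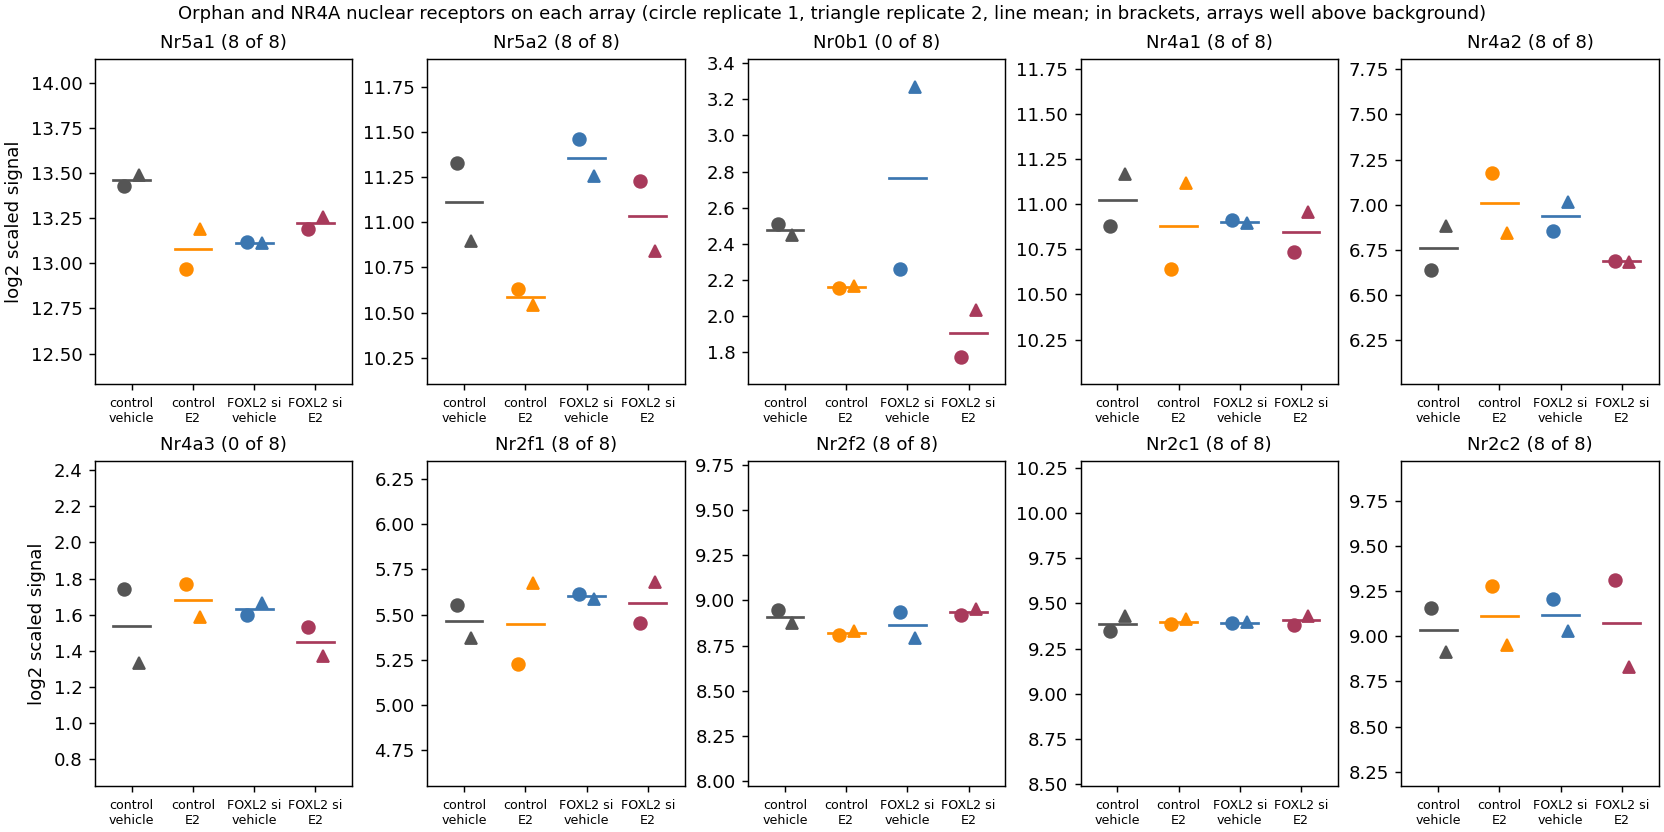
Log2 scaled signal (y axis) of each of the 10 receptors on each array, by group (x axis), with circles for replicate 1, triangles for replicate 2, a line at the mean and, in brackets, the number of arrays on which the gene was well above background. Every panel spans the same width of log2 units, so the flat row of Nr2c1 (9.35 to 9.43) can be compared with the spread of Nr5a2 (10.54 to 11.46). Nr0b1 and Nr4a3 were at background on all arrays.

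None of the 8 tested receptors was called in any of the 6 comparisons at an adjusted p of 0.05. For FOXL2 siRNA against control siRNA with vehicle, limma called 0 of 8, where 6.57% of all 15638 tested genes were called, and 1 receptor (Nr5a1) had an unadjusted p under 0.05. With E2 the count was 0 of 8 against a background of 4.39%, with 1 (Nr5a2) under the unadjusted threshold. Over both treatments it was 0 of 8 against 12.6%, with 1 (Nr5a2) under the unadjusted threshold. For E2 against vehicle, limma called 0 of 8 with control siRNA and 0 of 8 with FOXL2 siRNA, where 0.0192% and 0.0128% of all genes were called. Unadjusted p-values under 0.05 were found for 2 receptors (Nr5a1 and Nr5a2) and 0 receptors, respectively. For the difference between both E2 effects the count was 0 of 8 against 0.243%, with 1 (Nr5a1) under the unadjusted threshold. Of all tested genes, 19.7%, 16.6% and 26.8% were under the unadjusted threshold for FOXL2 siRNA with vehicle, with E2 and over both treatments. For E2 with control siRNA, E2 with FOXL2 siRNA and the difference, these shares were 4.58%, 3.04% and 4.90%. With 8 receptors and these shares of called genes, a count of 0 says little about FOXL2 siRNA or E2. The changes of the receptors ran from -0.34 to 0.25 on the log2 scale for FOXL2 siRNA with vehicle, from -0.32 to 0.45 with E2, and from -0.52 to 0.25 for E2 with control siRNA. None reached the 2-fold change that corresponds to 1 on this scale. With the replicate number as a block in the fit, Nr5a1 or Nr5a2 was called in 4 of the 6 comparisons.

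**Figure D2:**
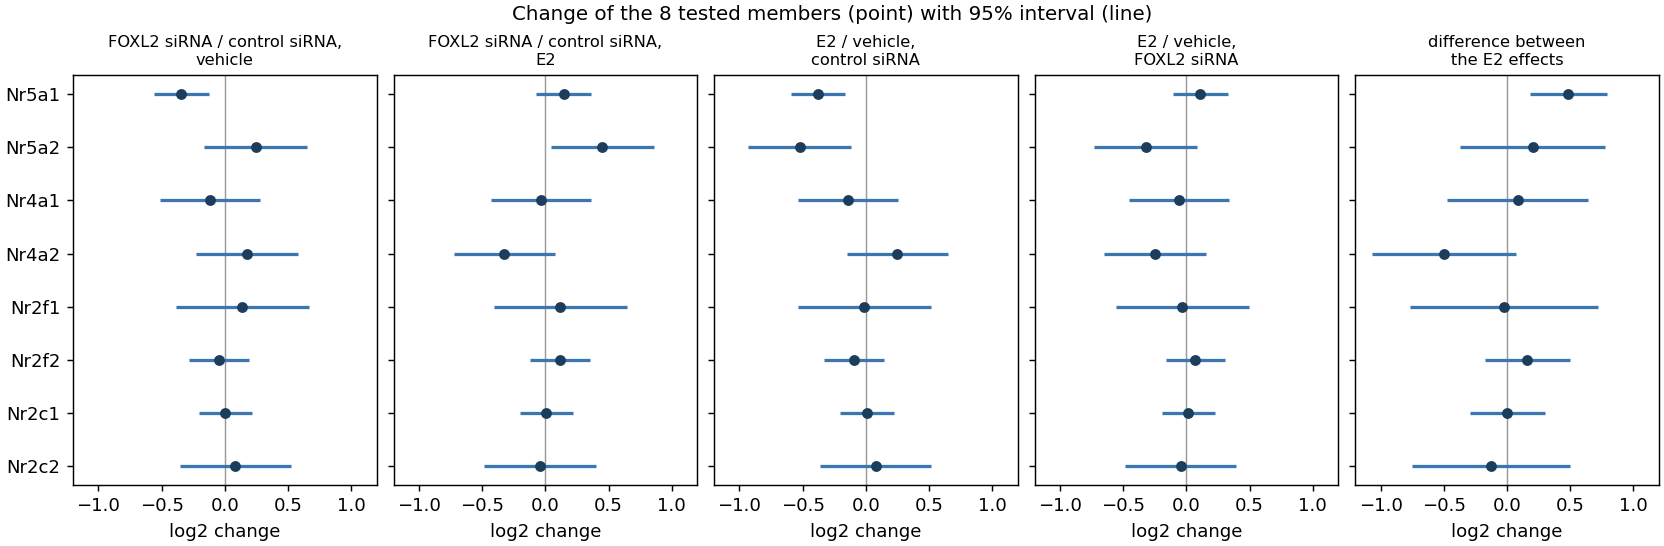
Log2 change (x axis, point) with its 95% interval (line) of the 8 receptors above background, in 5 comparisons. The intervals of Nr2c1 are the narrowest, and those of Nr5a1 leave out 0 for FOXL2 siRNA with vehicle, for E2 with control siRNA and for the difference between the E2 effects, before any adjustment for the number of genes tested.

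The NR5A genes held the lowest unadjusted p-values of the set. Nr5a1 was measured by 1 probe. Its log2 scaled signal was 13.43 and 13.49 on the control siRNA arrays with vehicle, 12.97 and 13.19 on those with E2, 13.12 and 13.11 on the FOXL2 siRNA arrays with vehicle, and 13.19 and 13.26 on those with E2. Both arrays of control siRNA with vehicle lay above the other 6. The difference between FOXL2 siRNA and control siRNA with vehicle was -0.34 (SE 0.09, 95% interval -0.56 to -0.13), or 0.788-fold, with a limma adjusted p of 0.0771. With 2 arrays per group, the groups did not overlap in any pairwise comparison of Nr5a1, changes as small as 0.11 included. The share of all genes without overlap was not counted. Under quantile normalization the same difference was -0.39 and was called (limma adjusted p = 0.0334), and with the replicate number as a block it was also called (adjusted p = 0.0115). E2 against vehicle with control siRNA gave -0.38 (95% interval -0.59 to -0.16, limma adjusted p = 0.641). These differences have the control siRNA vehicle arrays in common. With FOXL2 siRNA, E2 against vehicle gave 0.11 (95% interval -0.11 to 0.33). The difference between both E2 effects on Nr5a1 was 0.49 (95% interval 0.18 to 0.79), which did not pass the adjustment over all genes (limma adjusted p = 0.487).

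Nr5a2 had the widest range of the tested receptors, 0.92 on the log2 scale or 1.89-fold. Its values were 11.33 and 10.90 on the control siRNA arrays with vehicle, 10.63 and 10.54 on those with E2, 11.46 and 11.25 on the FOXL2 siRNA arrays with vehicle, and 11.23 and 10.84 on those with E2. The control siRNA arrays with E2 were the lowest pair and the FOXL2 siRNA arrays with vehicle reached the highest value. E2 against vehicle with control siRNA gave -0.52 (SE 0.18, 95% interval -0.93 to -0.12, limma adjusted p = 0.865), and with FOXL2 siRNA -0.32 (95% interval -0.73 to 0.09). FOXL2 siRNA against control siRNA gave 0.25 with vehicle and 0.45 with E2 (95% interval 0.04 to 0.86, limma adjusted p = 0.248). Over both treatments the difference was 0.35 (SE 0.12, limma adjusted p = 0.117), or 1.27-fold. The array of replicate 1 lay above that of replicate 2 in all 4 groups, by 0.08 to 0.43. The change of Nr5a2 for FOXL2 siRNA with vehicle was 0.032 without replicate 2 of control siRNA with vehicle and 0.46 without its replicate 1. With E2 it was 0.25 without replicate 1 of FOXL2 siRNA with E2 and 0.64 without its replicate 2. For E2 with control siRNA it was -0.31 without replicate 1 of control siRNA with vehicle and -0.74 without its replicate 2. With the replicate number as a block, Nr5a2 was called for E2 with control siRNA (adjusted p = 0.0249), for FOXL2 siRNA with E2 (adjusted p = 0.00775) and for FOXL2 siRNA over both treatments (adjusted p = 0.00254), with the same changes. The difference between both E2 effects was 0.20 (95% interval -0.37 to 0.78).

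The gene value of Nr5a2 came almost wholly from the brighter of its 2 probes. That probe had scaled signals of 5052 and 3720 on the control siRNA arrays with vehicle, 3099 and 2908 on those with E2, 5551 and 4785 on the FOXL2 siRNA arrays with vehicle, and 4721 and 3600 on those with E2. The dim probe of Nr5a2 ran from 66.5 to 97.3. For E2 with control siRNA, the bright probe changed by -0.53 and the dim probe by -0.26 on the log2 scale. For FOXL2 siRNA with E2 they changed by 0.46 and 0.06, respectively, so they had the same sign but not the same size. Both probes were assigned to the same RefSeq transcript.

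**Figure D3:**
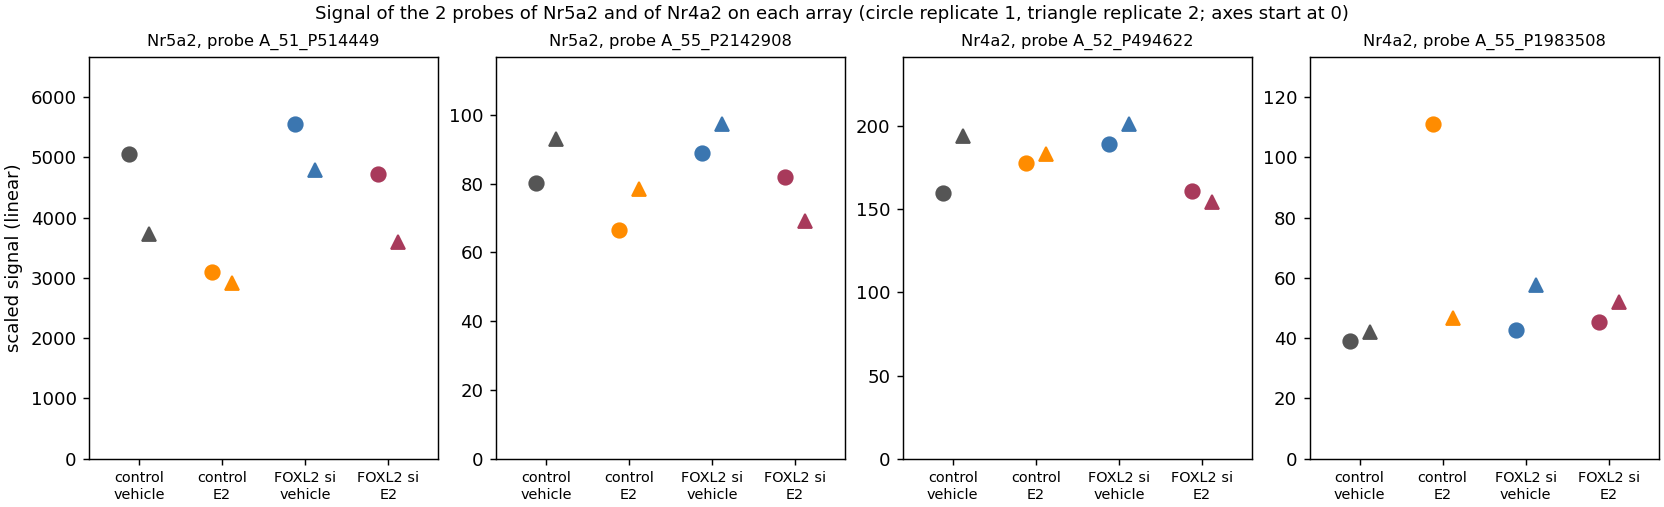
Scaled signal (y axis, linear, starting at 0) of both probes of Nr5a2 and both probes of Nr4a2 on each array, by group (x axis), with circles for replicate 1 and triangles for replicate 2. The bright Nr5a2 probe is lowest on the control siRNA arrays with E2, and 1 Nr4a2 probe reaches 111.0 on a single array of that group while the other 7 arrays lie between 39.1 and 57.8.

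The promoters of these genes are shown because the NR5A proteins bind an extended AGGTCA motif at steroidogenic genes, where NR0B1 represses NR5A1. RefSeq start sites of mouse assembly GRCm38.p6 were matched for 9 of the 10 receptors (11 windows), the exception being Nr5a1. In the 250 bases before the start, on either strand, the core AGGTCA was found for Nr5a2 and Nr0b1 and for none of the other 7 matched receptors. Of all 32851 promoter windows of that length, 14.0% hold it. The lines below give windows of these 2 genes and of the NR5A targets Cyp11a1, the enzyme of the first step of steroid synthesis, and Inha, the inhibin α subunit, with AGGTCA in capitals. The Nr5a2 window is chr1:136960449-136960698 on the minus strand, that of Nr0b1 chrX:86191525-86191774, that of Cyp11a1 chr9:58014702-58014951 and that of Inha chr1:75507359-75507608, the last 3 on the plus strand.
Nr5a2 promoter: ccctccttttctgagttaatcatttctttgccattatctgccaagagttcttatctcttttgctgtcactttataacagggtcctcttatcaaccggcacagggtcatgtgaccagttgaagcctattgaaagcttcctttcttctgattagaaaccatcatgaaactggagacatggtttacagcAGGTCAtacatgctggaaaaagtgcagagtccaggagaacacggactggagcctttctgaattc
Nr0b1 promoter: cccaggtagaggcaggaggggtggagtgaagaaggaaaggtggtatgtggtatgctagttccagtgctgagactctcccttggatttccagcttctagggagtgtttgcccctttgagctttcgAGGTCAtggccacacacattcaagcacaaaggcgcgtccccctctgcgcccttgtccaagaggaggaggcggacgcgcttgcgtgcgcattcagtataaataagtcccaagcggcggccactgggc
Cyp11a1 promoter: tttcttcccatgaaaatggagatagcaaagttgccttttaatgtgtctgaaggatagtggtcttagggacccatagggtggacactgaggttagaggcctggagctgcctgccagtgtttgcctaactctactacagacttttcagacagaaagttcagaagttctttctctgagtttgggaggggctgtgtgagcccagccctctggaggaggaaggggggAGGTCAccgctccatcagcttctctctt
Inha promoter: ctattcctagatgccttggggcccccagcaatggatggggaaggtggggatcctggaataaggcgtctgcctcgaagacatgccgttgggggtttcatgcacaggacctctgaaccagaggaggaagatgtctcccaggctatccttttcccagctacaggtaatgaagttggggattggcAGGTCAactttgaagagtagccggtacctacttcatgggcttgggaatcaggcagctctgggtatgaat
The core ends 59 bases before the start in Nr5a2, 121 in Nr0b1, 23 in Cyp11a1 and 64 in Inha. Both Nr5a2 and Cyp11a1 have a second annotated start whose window has no AGGTCA. The extended AAGGTCA, the NR5A type of motif, was in none of the 11 receptor windows, in neither the Cyp11a1 nor the Inha window shown, and in 4.08% of all windows. Of the 17 windows matched for 12 NR5A targets, those of Akr1b7 and Amhr2, not shown, hold AAGGTCA. The core AGGTCA alone was also in windows of Cyp19a1 and Lhcgr. The longer AAAGGTCA, the NR4A monomer motif, which holds the core within it, was in none of the 11 receptor windows and in 1.34% of all windows. The estrogen receptor palindrome, AGGTCA and TGACCT separated by 3 bases, was in none of them and in 0.0213% of all windows. The forkhead motif GTAAACA was in 1 of the 11, a window of Nr2f1, and in 3.17% of all windows. A match is a run of letters and not a measured binding site.

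Known target genes of NR5A1 and NR5A2 were described as a list. Of 18 such targets, 17 were on the array and 13 were tested. With FOXL2 siRNA and vehicle, 2 of them were called higher and 2 lower, against 3.63% of all genes called higher and 2.94% called lower. With E2, 2 were higher and 0 lower, against 2.25% and 2.14%, and over both treatments 2 were higher and 2 lower, against 6.41% and 6.19%. The median change of the 13 targets over both treatments was 0.12, beside 0.00 (-0.0026) for all tested genes. Cyp11a1 had log2 scaled signals of 14.19 and 14.29 on the control siRNA arrays with vehicle, 14.02 and 14.11 on those with E2, 15.06 and 15.12 on the FOXL2 siRNA arrays with vehicle, and 15.01 and 14.97 on those with E2. All 4 arrays labelled FOXL2 siRNA lay above all 4 control arrays, and Cyp11a1 rose by 0.89 over both treatments (SE 0.06, limma adjusted p = 0.000195). Sox9, the Sertoli cell factor, rose by 2.05 (adjusted p = 0.000301). Hsd3b6 and Hsd3b1, isoforms of the enzyme that forms progesterone, fell by 1.05 (adjusted p = 0.00459) and 0.69 (adjusted p = 0.00745) on the log2 scale. The other 9 tested targets were not called over both treatments. Of the 17 targets on the array, 4 (Amh, Fshr, Lhcgr and Akr1b7) were above background on no array.

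Nr4a1, an immediate early gene, was measured by 1 probe and stayed within a 1.44-fold range. Its log2 scaled signal was 10.88 and 11.16 on the control siRNA arrays with vehicle, 10.64 and 11.12 on those with E2, 10.91 and 10.89 on the FOXL2 siRNA arrays with vehicle, and 10.74 and 10.96 on those with E2. The groups overlapped in all 4 pairwise comparisons. The change was -0.12 (95% interval -0.52 to 0.28) for FOXL2 siRNA with vehicle and -0.03 (95% interval -0.43 to 0.36) with E2, with limma adjusted p-values of 0.783 and 0.951. For E2 it was -0.14 (95% interval -0.54 to 0.25) with control siRNA and -0.06 with FOXL2 siRNA. In folds, the 95% interval for FOXL2 siRNA over both treatments ran from 0.781 to 1.15.

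The Nr4a1 promoter is shown because it carries repeated copies of a cyclic AMP response type motif, TGCGTCA. The window is chr15:101266596-101266845, plus strand, with the motif in capitals.
Nr4a1 promoter: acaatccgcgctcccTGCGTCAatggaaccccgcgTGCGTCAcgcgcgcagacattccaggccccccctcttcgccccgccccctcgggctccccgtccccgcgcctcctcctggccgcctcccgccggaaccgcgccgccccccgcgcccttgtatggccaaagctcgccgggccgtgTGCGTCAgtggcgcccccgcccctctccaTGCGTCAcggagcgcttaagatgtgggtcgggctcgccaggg
TGCGTCA occurs 4 times in this window, with its first base 235, 215, 71 and 42 bases before the start. It was in none of the other 10 receptor windows, those of Nr4a2 and Nr4a3 included, and in 1.75% of all windows. The full palindrome TGACGTCA was in none of the 11 windows and in 1.55% of all. Only these exact strings were searched, so related forms are not counted. The Nr4a3 window, for example, holds TGACGTCT, which differs from the palindrome in its last letter.

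Other immediate early genes were called in both directions. Of 19 on a list of them, 17 were tested. With FOXL2 siRNA, 4 were called higher and 3 lower with vehicle, 2 and 1 with E2, and 6 and 4 over both treatments. Of all tested genes, 3.63% were called higher and 2.94% lower with vehicle, 2.25% and 2.14% with E2, and 6.41% and 6.19% over both. The median change of the list over both treatments was 0.07. Fos, a subunit of AP-1, had log2 scaled signals of 7.72 and 7.79 on the control siRNA arrays with vehicle, 7.46 and 7.19 on those with E2, 6.19 and 5.75 on the FOXL2 siRNA arrays with vehicle, and 6.43 and 6.16 on those with E2. All control arrays lay above all arrays labelled FOXL2 siRNA, and Fos fell by 1.41 on the log2 scale over both treatments (SE 0.14, limma adjusted p = 0.000957). The early growth response genes Egr2 and Egr1 fell by 1.17 (adjusted p = 0.0205) and 0.63 (adjusted p = 0.0265). Egr2 was near background: it was well above it on 7 of 8 arrays, and its lowest log2 value was 3.54 (FOXL2 siRNA with E2, replicate 2). Klf4, a Krüppel-like factor, rose by 0.87 (adjusted p = 0.00145). Dusp1, a phosphatase of MAP kinases, was called with vehicle (1.09, adjusted p = 0.00189) and over both treatments (0.60, adjusted p = 0.00186). Klf6, another Krüppel-like factor, was called with vehicle (0.51, adjusted p = 0.0183), with E2 (0.43, adjusted p = 0.0423) and over both (0.47, adjusted p = 0.00343). Whether Nr4a1 differed in its change from these genes was not tested.

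Nr4a2 had log2 scaled signals of 6.64 and 6.88 on the control siRNA arrays with vehicle, 7.17 and 6.85 on those with E2, 6.85 and 7.02 on the FOXL2 siRNA arrays with vehicle, and 6.69 and 6.69 on those with E2. The array of control siRNA with E2, replicate 1, was the highest. FOXL2 siRNA against control siRNA gave 0.18 with vehicle and -0.32 with E2 (95% interval -0.72 to 0.08, limma adjusted p = 0.414). E2 gave 0.25 with control siRNA and -0.25 with FOXL2 siRNA. The difference between both E2 effects was -0.50 (SE 0.24, 95% interval -1.07 to 0.07, limma adjusted p = 1.00). The high array came from 1 of the 2 probes. The probe with lower signal read 111.0 there and 39.1 to 57.8 on the other 7 arrays, whereas the other probe ran from 154 to 201 and read 178 on that array. For E2 with control siRNA these probes changed by 0.83 and 0.04. Without that array, the difference between the E2 effects on Nr4a2 was -0.33.

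Nr2f2, the COUP-TF gene measured by 1 probe, had a narrow range. It had values of 8.94 and 8.88 on the control siRNA arrays with vehicle, 8.81 and 8.83 on those with E2, 8.94 and 8.79 on the FOXL2 siRNA arrays with vehicle, and 8.92 and 8.95 on those with E2. The range over all 8 arrays was 0.16 on the log2 scale, and 98.0% of the tested genes had a larger one. The largest change of Nr2f2 between 2 groups was 0.12 for FOXL2 siRNA with E2 (95% interval -0.12 to 0.35, limma adjusted p = 0.658). For the theca and stroma markers, the median change in that comparison was 0.57 over 6 tested genes, with 0 called by limma. Nr2f1 was dimmer, with values of 5.23 to 5.68, the lowest and the highest being an array of control siRNA with E2 and one of FOXL2 siRNA with E2. Its changes lay between -0.03 and 0.14 in the 5 comparisons between groups, with wider intervals (for FOXL2 siRNA with vehicle, -0.39 to 0.66). One of its 2 probes, with a signal of 9.12 to 22.5, was well above background on 7 of 8 arrays.

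Nr2c1 had the smallest range of the tested receptors. It ran from 9.35 to 9.43, a range of 0.08 or 1.06-fold, and 99.97% of tested genes had a larger range, beside a median range of 0.53 over all tested genes. Its changes over the comparisons lay between 0.004 and 0.01, and the 95% interval over both treatments for FOXL2 siRNA was 0.906- to 1.11-fold. This gene value is a mean of probes that differed: the brighter probe of Nr2c1 changed by 0.08 for FOXL2 siRNA in both treatments, and the dimmer by -0.16 with vehicle and -0.14 with E2. Nr2c2, its paralog, had 9.16 and 8.91 on the control siRNA arrays with vehicle, 9.28 and 8.95 on those with E2, 9.21 and 9.03 on the FOXL2 siRNA arrays with vehicle, and 9.31 and 8.83 on those with E2. Replicate 1 lay above replicate 2 in all 4 groups, by 0.18 to 0.48, whereas the group means differed by at most 0.08. The spread between replicates of Nr2c2 was larger than any difference between 2 group means. The 95% interval over both treatments was 0.818- to 1.26-fold.

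Other nuclear receptors were described as lists from the same arrays. Of 15 other orphan receptors, 9 were tested, and over both treatments 0 were called higher and 2 lower with FOXL2 siRNA, where 6.41% and 6.19% of all tested genes were called. Rorb, a retinoid-related orphan receptor, fell by 0.75 on the log2 scale (SE 0.10, limma adjusted p = 0.00262), and Nr1d1, a heme-binding repressor of the circadian clock, fell by 0.94 (adjusted p = 0.0185). Of 23 ligand-activated receptors, 19 were tested, and 3 were higher and 3 lower over both treatments. Pparg, a fatty acid sensor, had values of 12.95 and 12.94 on the control siRNA arrays with vehicle, 12.97 and 12.79 on those with E2, 11.05 and 10.68 on the FOXL2 siRNA arrays with vehicle, and 11.46 and 10.82 on those with E2. It fell by 1.91 (SE 0.15, adjusted p = 0.000348). Vdr, the vitamin D receptor, rose by 0.71 (adjusted p = 0.00694), and Esr2, the estrogen receptor of granulosa cells, fell by 0.46 (adjusted p = 0.0167). The bile acid receptor Nr1h4 rose by 0.42 (adjusted p = 0.00831). The median change over both treatments was 0.01 for the other orphan receptors, -0.03 for the ligand-activated receptors and 0.01 for the 8 receptors described here. Whether the lists differ from these 8 was not tested.

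Partners of the receptors were described next. Of 14 cofactors and transcription factors that bind or modulate them, 12 were tested. With FOXL2 siRNA, 2 were called higher and 2 lower with vehicle, 2 and 0 with E2, and 3 and 3 over both treatments, with a median of -0.09. The shares of all tested genes called higher and lower were 3.63% and 2.94% with vehicle, 2.25% and 2.14% with E2, and 6.41% and 6.19% over both. Wt1, which acts with NR5A1 in the gonad, rose by 1.02 (SE 0.07, limma adjusted p = 0.000301), with all 4 arrays labelled FOXL2 siRNA between 13.86 and 14.13 and all control arrays between 12.78 and 13.00. Bcl11a, a COUP-TF interacting repressor, fell by 1.01 (adjusted p = 0.00429). Nrip1, a corepressor of nuclear receptors, fell by 0.71 (adjusted p = 0.00387), and Cited2, a coactivator of NR5A1, by 0.49 (adjusted p = 0.0454). Gata4, which binds NR5A1, was called with E2 (0.60, adjusted p = 0.0351) and over both treatments (0.47, adjusted p = 0.0113). Hdac3, a deacetylase of corepressor complexes, was called with vehicle (0.66, adjusted p = 0.0183) and over both (0.40, adjusted p = 0.0197). For E2 against vehicle, none of the 70 tests over these 5 lists was called with control siRNA and none with FOXL2 siRNA by limma. Unadjusted p-values were under 0.05 for 8 and 4 of them, beside 4.58% and 3.04% of all tested genes. For the difference between the E2 effects, none was called and 8 had such a p, beside 4.90% of all tested genes.

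**Figure D4:**
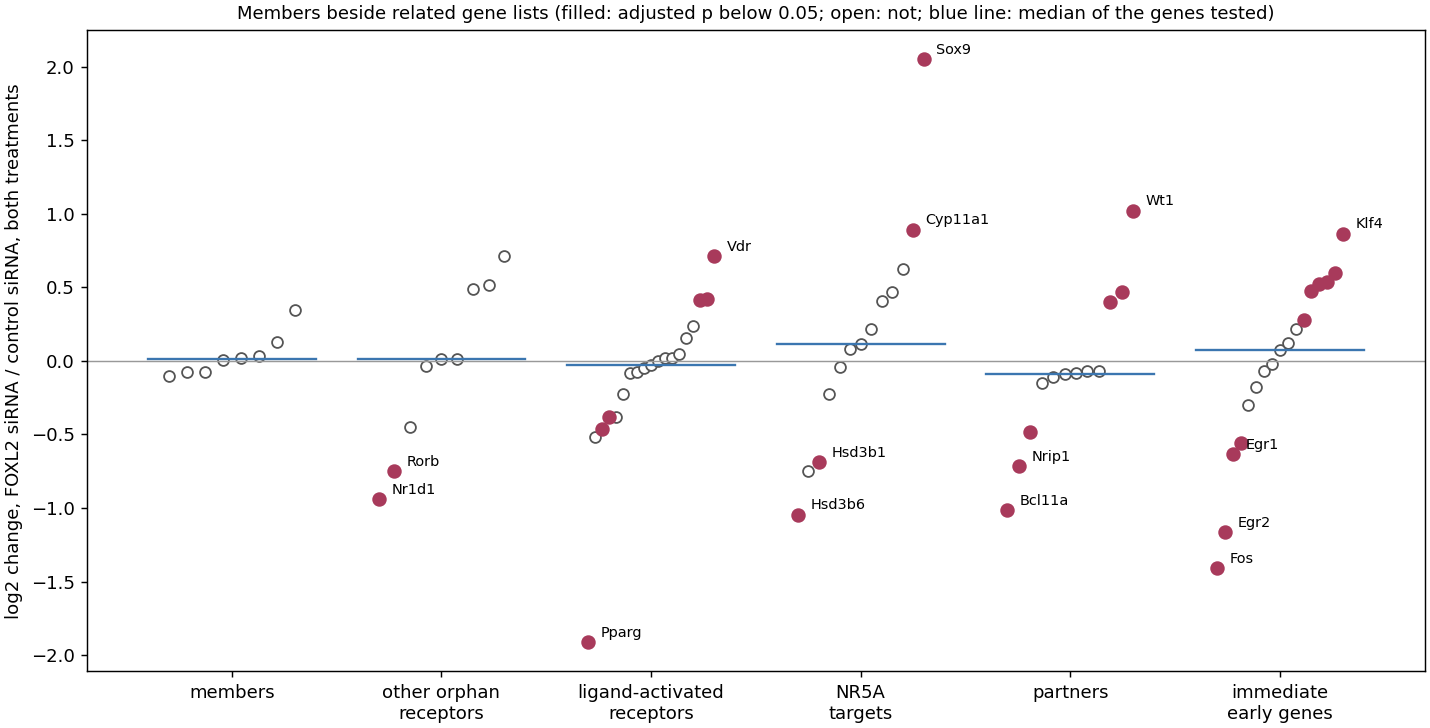
Log2 change for FOXL2 siRNA against control siRNA over both treatments (y axis) of each tested gene of the receptors described here and of 5 related lists (x axis), with filled points for genes called at an adjusted p of 0.05, open points for the others and a blue line at the median. The 8 receptors lie between -0.10 and 0.35 with no filled point, where 12.6% of all tested genes were called. The other lists have 9 to 19 tested genes, and each has called genes, Pparg at -1.91 and Sox9 at 2.05 being the farthest from 0.

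The genes whose pattern over the 8 arrays was most like each receptor were looked for among 12624 genes well above background on all arrays, by Pearson correlation. For Nr5a1 these were Klf15 (0.97) and Ntmt1 (0.95), for Nr5a2 Grm2 and Fbxl15 (both 0.96), for Nr4a1 Slc25a25 and Mapk8ip3 (both 0.98), and for Nr4a2 Heyl and Zfp78 (both 0.90). For Nr2f1 they were Pop7 and Ece2 (both 0.96), for Nr2f2 Smarcal1 and Car12 (both 0.95), for Nr2c1 Ppp1r18 and Epg5 (both 0.97), and for Nr2c2 H2-T24 and Samd14 (both 0.97). Between paralogs, the correlation was 0.14 for Nr5a1 with Nr5a2, -0.25 for Nr4a1 with Nr4a2, 0.34 for Nr2f1 with Nr2f2 and -0.76 for Nr2c1 with Nr2c2. Replicate 1 lay above replicate 2 in 0 groups for Nr2c1 and in 4 groups for Nr2c2. These 8 points share a slide and 2 replicate numbers, and the best of 12624 genes is high by selection, so the values only describe these arrays.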

How the data were processed

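RNA from 8 cultures was amplified from 50 ng, labelled with Cy3 and hybridised by the authors to the 8 one-colour Agilent arrays of 1 slide, 2 per group. Groups and replicate numbers came from the sample titles. Per the file headers, the deposited intensity values are background-subtracted processed signals of Agilent Feature Extraction (version 11.5.1.1), with no scaling between arrays. The submitters' processing notes also name GeneSpring v12. The authors' own table holds log2 values, scaled by the 75th percentile per array. After removal of 1 constant per array, it equalled the values used here within 0.001 at 98.6 to 98.9% of rows. Array values have no read depth, so the number of arrays limits precision. On each array, 51.3 to 55.6% of probes rose well above background, and 0 spots were saturated.

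Of 62976 spots, 3671 control spots were left out. Spots of a probe were averaged without those flagged as non-uniform, which left 55642 of 55681 probes. A probe was well above background if most of its spots were flagged so, and a gene if any of its probes was. Signals were divided by the 75th percentile per array (275 to 367), multiplied by the geometric mean of these percentiles (320.0), averaged over the probes of an Entrez gene ID and put on a log2 scale. Of 24235 genes, 22352 got a RefSeq symbol, and the 15638 whose median scaled signal reached 10 were tested. limma 3.58.1 in R 4.3.3 fitted 4 group means over 8 arrays with an intensity trend, which leaves 4 residual degrees of freedom. All p-values are two-sided and adjusted by Benjamini-Hochberg over all tested genes (threshold 0.05), and the script was first tested on simulated data. The replicates are cultures of pooled mice, and p-values measure the spread between these samples. Tables and plots used matplotlib 3.10.9, pandas 2.3.3 and numpy 2.4.6 in Python 3.11.15.

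The receptors, gene lists, motifs and alternatives were chosen with earlier results of these data known. Genes were named as follows: all 10 receptors, Foxl2, per list and comparison at most 4 called genes with the largest change, and the 2 genes most like each receptor. No list was given a test of its own. Replicate numbers were not used as a block in the reported fits, since the methods give pools of 5 mice per replicate without saying whether the 4 cultures of one number came from one pool. Alternatives were other filters, quantile and median normalization, normexp background correction with an offset of 50 (on the median signals of spot and surroundings, the raw columns used here), the authors' table, the brightest probe per gene, no trend, a replicate block, a fit of the compared groups alone, and leaving out each array.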

Additional observations from a re-analysis of the deposited data

How the results depend on the processing

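The count of receptors called was recomputed 112 times over 6 comparisons and the settings tried, and was above 0 in 5 cases. With quantile normalization it was 1 for FOXL2 siRNA with vehicle (Nr5a1). With the replicate number as a block it was 1 for FOXL2 siRNA with vehicle (Nr5a1), 1 with E2, 1 over both treatments and 1 for E2 with control siRNA (Nr5a2 in these 3). The block raised the called genes from 1027 to 2932 with vehicle, from 686 to 2331 with E2, from 1971 to 4326 over both treatments, from 3 to 182 for E2 with control siRNA, from 2 to 96 for E2 with FOXL2 siRNA and from 38 to 332 for the difference. Across the tested genes, differences between replicates 1 and 2 correlated at 0.33 to 0.44 for every pair of groups, with only 2 replicate numbers. The block changed no other call of a receptor. Other settings moved the gene counts by over 1.5 times as follows. Without an intensity trend they were 633 for FOXL2 siRNA with vehicle, 379 with E2, 1 for either E2 comparison and 15 for the difference. Without a filter they were 1, 0 and 9 for E2 with control siRNA, E2 with FOXL2 siRNA and the difference. A fit of the compared groups alone gave 585 for FOXL2 siRNA with vehicle and 0 for E2 with FOXL2 siRNA, normexp 7 for E2 with control siRNA, and the brightest probe 1 for E2 with FOXL2 siRNA. Leaving out 1 array gave 309 to 918, 131 to 629, 1181 to 1879, 0 to 5, 0 to 4 and 4 to 10 genes in the order of the block counts above, with 0 receptors called each time.

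Of 848 alternative values for 48 single changes, 788 kept direction and side of the threshold, 5 passed it and 55 turned direction, none of these called. The largest change that turned was 0.20 in size (Nr5a2, the difference between the E2 effects). Normexp turned Nr2c1 to -0.0013 with vehicle, -0.014 with E2, -0.0077 over both treatments and -0.013 for the difference, and the authors' table to -0.0041 with vehicle. For E2 with control siRNA, Nr2f1 turned to 0.089 (quantile) and 0.063 (brightest probe), and Nr2c2 to -0.0078 (brightest probe). The cause was not tested. Leaving out each of the 8 arrays in turn turned 47 values. Nr4a1 then ran from -0.26 to 0.023 for FOXL2 siRNA with vehicle, -0.27 to 0.21 for FOXL2 siRNA with E2, -0.20 to 0.043 for FOXL2 siRNA over both treatments, -0.38 to 0.097 for E2 with control siRNA, -0.17 to 0.053 for E2 with FOXL2 siRNA and -0.15 to 0.32 for the difference. Nr2f2 then ran from -0.12 to 0.025 for FOXL2 siRNA with vehicle, -0.0011 to 0.071 for FOXL2 siRNA over both treatments and -0.00073 to 0.14 for E2 with FOXL2 siRNA. Nr2c1 then ran from -0.036 to 0.044 for FOXL2 siRNA with vehicle, -0.016 to 0.033 for FOXL2 siRNA with E2, -0.014 to 0.026 for FOXL2 siRNA over both treatments, -0.030 to 0.050 for E2 with control siRNA, -0.010 to 0.038 for E2 with FOXL2 siRNA and -0.036 to 0.044 for the difference. Nr2c2 then ran from -0.041 to 0.21 for FOXL2 siRNA with vehicle, -0.28 to 0.20 for FOXL2 siRNA with E2, -0.099 to 0.14 for FOXL2 siRNA over both treatments, -0.083 to 0.24 for E2 with control siRNA, -0.29 to 0.19 for E2 with FOXL2 siRNA and -0.36 to 0.11 for the difference. Nr2f1 then ran from -0.11 to 0.34 for FOXL2 siRNA with E2, -0.24 to 0.21 for E2 with control siRNA, -0.14 to 0.078 for E2 with FOXL2 siRNA and -0.24 to 0.20 for the difference. Nr4a2 then ran from -0.16 to 0.0079 for FOXL2 siRNA over both treatments. Nr5a2 then ran from -0.011 to 0.42 for the difference.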
